A study of Mus musculus with 4 samples.

Results

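Knockout fibroblasts transfected with a negative-control siRNA were compared with knockout fibroblasts that were not transfected. The comparison used all genes of the deposited table in 2 of the 4 libraries of the study, chosen by their labels and not by any measured value. Of 16416 genes, 12535 were measured, meaning that they reached 1 CPM (a count scaled to library size) in at least 1 of the 2 libraries. All cells were labelled as synovial fibroblasts and had been grown out of mouse shoulder joint capsule, taken 1 week after the joint had been immobilized, and all were used at passage 2 in DMEM with 10% fetal bovine serum. Both libraries are labelled miR-26a -/-, a deletion of this microRNA. One carries no treatment in its labels, and the other received 10 nM Silencer Negative Control siRNA#1 with the lipid reagent Lipofectamine RNAiMax for 24 h. The other libraries, which serve as reference points, came from untransfected wild-type C57BL6/J cells and from miR-26a -/- cells given 10 nM of a double-stranded miR-26a mimic with the same reagent for the same time. No library of cells given the lipid reagent alone was analysed here, so the oligonucleotide, the lipid and the handling cannot be told apart from these labels. The labels give no age or sex of the mice and no number of animals behind a culture.

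A small interfering RNA is a short RNA duplex. One of its strands is loaded into an Argonaute protein and guides it to matching transcripts, which are then cut. A negative-control siRNA is designed to match no transcript of the cell, so that cells given it carry the same transfection as cells given an active duplex. Loaded strands can also act as microRNAs do. They pair through a few bases near their 5′ end, the seed, with complementary sites in 3′ untranslated regions (3′ UTRs) and modestly lower those transcripts. Foreign RNA and lipid can also be met by sensors such as RIG-I, MDA5 and Toll-like receptors, which induce interferon-stimulated genes.

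The estimated counts summed to between 17598763 and 19392655 per library, and between 15150 and 15370 genes had a count above 0. Each group had 1 library, so no difference has a replicate check and no p-value is given. Ratios are log2 of scaled counts, negative control over untransfected knockout, and are printed with their exact 95% counting interval in parentheses. These intervals cover counting error only. A gene was counted as changed when its ratio was at least 2-fold, or in a wider rule at least 1.5-fold, and its interval excluded 0. Levels are TPM, an abundance scaled by transcript length and library size. The markers went in part against the cell label: macrophage genes were abundant, with Lyz2 (lysozyme) at 18990.7 TPM in the untransfected and 17285.6 TPM in the negative-control library, and the 21 measured macrophage markers summed to 34753 and 33755.6 TPM. The 16 measured general fibroblast markers summed to 16438 and 14683 TPM in the same order. Of 9 lymphocyte markers 4 were in the table and 0 reached 1 CPM. In mixed bulk RNA, fewer cells of a type and less RNA per cell cannot be told apart.

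The 2 knockout libraries differed little across the transcriptome. The median ratio over the measured genes was 0.00, and the middle 90% lay between -0.48 and 0.34. At 2-fold, 38 genes (0.303%) rose and 92 genes (0.734%) fell, together 1.04%. At 1.5-fold, 123 genes (0.981%) rose and 340 genes (2.71%) fell. Within 0.02 of the 2-fold limit on the log2 scale, 20 genes lay at or just past the limit and 7 lay just short of it. With the same 2-fold rule, 0.742% of measured genes differed between mimic and untransfected knockout cells, 1.21% between mimic and negative control, and 12.9% between knockout and wild type. These comparisons share libraries. Most of the 38 higher genes were rare transcripts, with 31 of them under 5 TPM in both libraries and a median of 0.77 TPM without and 2.04 TPM with the negative control. The 92 lower genes reached further up, and 60 of them were under 5 TPM in both libraries.

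**Figure D1:**
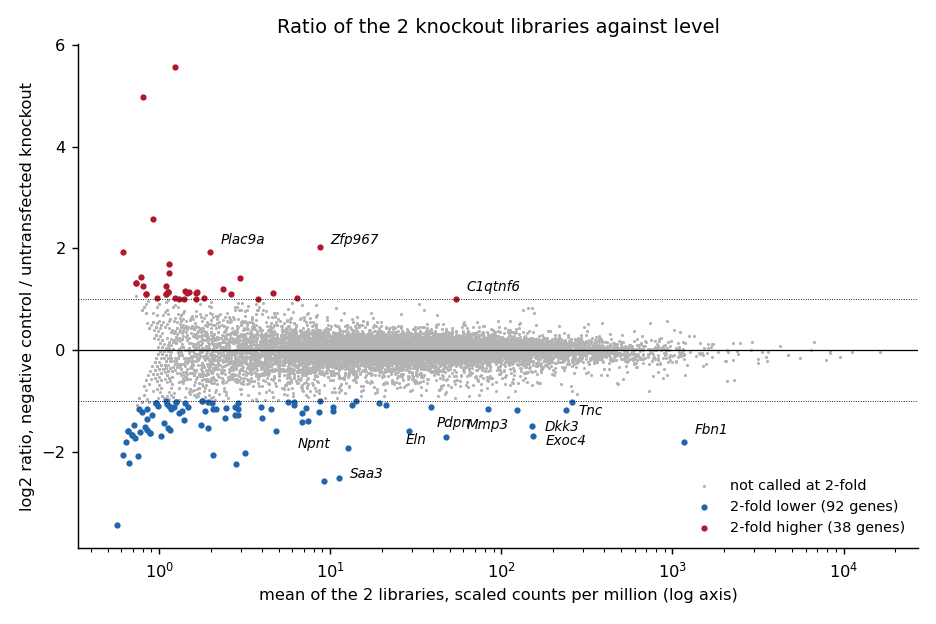
Log2 ratio of negative-control over untransfected knockout cells (vertical) against the mean scaled CPM of the 2 libraries (horizontal, log axis), 1 point per measured gene, with the 92 genes at least 2-fold lower in blue and the 38 at least 2-fold higher in red. Dotted lines mark 2-fold. Fbn1 at -1.80 and Exoc4 at -1.68 are among the abundant genes below the lower line, and C1qtnf6 at 1.01 lies above the upper one.

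Among genes with at least 5 TPM, the 15 largest falls included Fbn1 and Eln, both components of elastic fibres. Fbn1 encodes fibrillin-1, the backbone of microfibrils. It stood at 345 TPM in the untransfected knockout and at 101 TPM in the negative-control library, a ratio of -1.80 (-1.83 to -1.77), or 3.48-fold lower. The mimic library had 383 TPM and the wild-type library 641 TPM, so the negative-control library was the lowest of the 4. Eln encodes elastin, the rubber-like core of elastic fibres, and stood at 38.7 TPM untransfected, 11.7 TPM with the negative control, 53.3 TPM with the mimic and 328 TPM in wild type. Its ratio was -1.71 (-1.88 to -1.56).

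Exoc4, a subunit of the exocyst complex that tethers secretory vesicles to the plasma membrane, was nearly level in 3 libraries, at 97.4 TPM untransfected, 92.2 TPM with the mimic and 97.6 TPM in wild type. With the negative control it was 32.3 TPM, a ratio of -1.68 (-1.77 to -1.59), or 3.21-fold lower. Dkk3, a secreted protein of the Dickkopf family of Wnt modulators, fell from 132 to 48.0 TPM, a ratio of -1.48 (-1.57 to -1.40), against 117 TPM with the mimic and 323 TPM in wild type. Npnt, which encodes nephronectin, a matrix ligand of integrins, fell from 8.44 to 2.27 TPM, a ratio of -1.92 (-2.26 to -1.61), and stood at 10.7 TPM with the mimic. Gdf11, a ligand of the TGF-beta superfamily, went from 14.2 to 4.84 TPM at -1.59 (-1.79 to -1.39), with 12.2 TPM in the mimic library. Rasl12, a Ras-like GTPase, went from 9.10 to 3.47 TPM at -1.39 (-1.80 to -1.02), with 8.68 TPM in the mimic library. In all 5 of these genes the mimic library lay nearer to the untransfected than to the negative-control library.

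Saa3, an acute-phase protein that serves as an inflammatory marker, showed another pattern. It stood at 74.8 TPM in the untransfected knockout library, 14.3 TPM with the negative control, 17.2 TPM with the mimic and 4.66 TPM in wild type. Its ratio was -2.51 (-2.93 to -2.15) with the negative control and -2.14 with the mimic, both against the same untransfected library, which was the highest of the 4. Slpi, a secreted protease inhibitor of inflamed surfaces, likewise was highest in the untransfected library, at 7.56 TPM against 2.74 TPM with the negative control, 4.56 TPM with the mimic and 2.71 TPM in wild type, a ratio of -1.47 (-2.39 to -0.70). Itgb8, the integrin subunit that activates latent TGF-beta, fell from 6.19 to 2.68 TPM, a ratio of -1.23 (-1.65 to -0.85). Its level with the mimic was 6.45 TPM, near the untransfected one. Scx, a transcription factor of tendon, and Mylpf, a myosin light chain of fast muscle, fell at -1.33 (-2.07 to -0.69) and -1.37 (-2.40 to -0.52).

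The rule for naming also returned 3 lower genes whose counts are uncertain. Zfp966 (-2.57) belongs to a cluster of near-identical zinc-finger genes, and Elobl (-1.41) is a copy of Elob. Reads can be split between such copies by the counting. Cd99 (-1.61) rested on 21 and 7 counts, with an interval of -3.23 to -0.46.

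Some of the largest losses in absolute level were moderate in ratio. Vim, the intermediate filament of mesenchymal cells, went from 3205 to 2194 TPM at -0.59 (-0.61 to -0.57), against 3002 TPM with the mimic and 3740 TPM in wild type. It passed the 1.5-fold limit narrowly and was at -0.56, inside the limit, with total count scaling. Timp3, the matrix-bound inhibitor of metalloproteinases, went from 1051 to 709 TPM at -0.60 (-0.62 to -0.58) and was 1525 TPM with the mimic; with total count scaling it was at -0.58, also inside the limit. Arpc1b, a subunit of the actin-nucleating Arp2/3 complex, went from 832 to 540.0 TPM at -0.67, with 867 TPM in the mimic library. Selenof, a selenoprotein of the endoplasmic reticulum, went from 520.3 to 294 TPM at -0.87, with 528 TPM in the mimic library. Ywhah, a 14-3-3 adaptor protein, went from 333 to 214 TPM at -0.68, with 357 TPM in the mimic library. With Fbn1, Ly6a (Sca-1) at -0.70, Prelp at -0.81, Crip1 at -0.68 and Cd248 at -0.64, these were the 10 genes with the largest TPM differences among those past 1.5-fold. All 10 fell, while Csf1, described below just under that limit, rose by more TPM than Cd248 or Ywhah fell.

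A short sequence recurs in several of these lower transcripts. All 7-base sequences present in the 3′ UTRs of at least 200 measured genes were ranked by the median ratio of the genes holding them, on the transcript strand and with 1 annotated 3′ UTR, the longest, for each of 12344 genes. Of 14692 such sequences, GCAGTAC had the lowest median. It was held by 838 genes, 6.79% of the genes with a 3′ UTR, whose median ratio was -0.11 against 0.01 in the 11506 genes without it. Of the holders, 70.5% were below 0, against 47.7% of the others. The next lowest sequence, GCAATAC, stood at -0.05, and the 1st and 99th percentiles over all sequences were -0.01 and 0.03. The reverse complement, GTACTGC, was held by 825 genes with a median of 0.02. Because this sequence was picked as the extreme of the same ratios, its rank and median are a description. The sites below come from 7 of the 15 genes with the largest falls, those that hold the sequence, without the uncertain Zfp966 and without the first Eln site, whose 30 bases span an exon boundary. They are 30 bases each, read 5′ to 3′ on the transcript strand from GRCm38 with GENCODE M21 3′ UTRs, and the capitals mark the shared sequence. They show the bases on either side of it:
Npnt, chr3:132883816-132883845 (minus): atttcctggttaGCAGTACtgtgtttgtgt
Fbn1, chr2:125301016-125301045 (minus): tatgagtatggtGCAGTACatgtaaattaa
Eln, the second of 2 sites, chr5:134702935-134702964 (minus): ttgtccccacatGCAGTACtgtaaccccgt
Exoc4, the first of 2 sites, chr6:33972312-33972341 (plus): ctaagaaagtttGCAGTACagaatgttgcc
Exoc4, the second of 2 sites, chr6:33973478-33973507 (plus): gagaggtctaaaGCAGTACaagtattttgt
Gdf11, chr10:128883780-128883809 (minus): ttttggaatataGCAGTACctggatgcaca
Dkk3, chr7:112118061-112118090 (minus): acaaggtacagtGCAGTACatttcttccag
Rasl12, chr9:65411460-65411489 (plus): cagaaaggaactGCAGTACaaatcctgtgt

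All of these sites lie in annotated 3′ UTRs of protein-coding genes. The base sequence of the negative-control siRNA was not used here, so whether either of its strands pairs with this 7-base sequence was not tested. For comparison, the seed of miR-26a-5p, which is deleted by the genotype label and supplied by the mimic, is in capitals here as RefSeq gives the microRNA on GRCm38.p6 (chr9:119031811-119031832 for Mir26a-1 and chr10:126995543-126995564 for Mir26a-2), identical to the sense strand of the mimic in the labels:
mmu-miR-26a-5p: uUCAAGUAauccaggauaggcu
The site complementary to that seed, TACTTGA, was held by 1490 genes (12.1%). Their median was 0.02 with the negative control, near that of all genes with a 3′ UTR at 0.00. With the mimic, TACTTGA was the lowest of all sequences, at -0.03 against untransfected cells and -0.05 against the negative control. GCAGTAC in turn stood at 0.03 in mimic over untransfected cells, rank 4877 from the lowest, and at 0.15 in mimic over negative control, the highest of all. These last ratios share the untransfected or the negative-control library with the first and are not separate evidence.

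**Figure D2:**
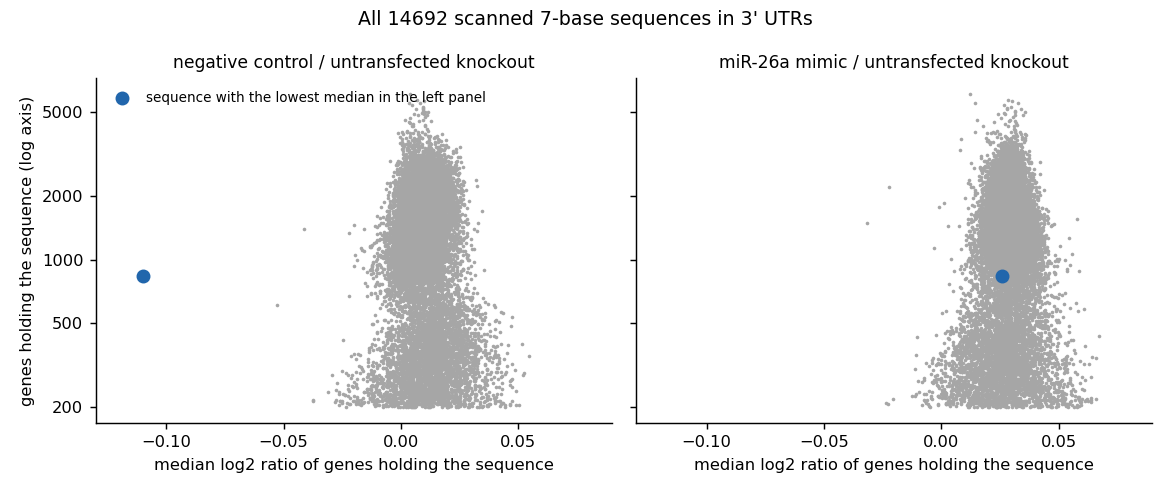
Each point is 1 of the 14692 scanned 7-base sequences, placed by the median log2 ratio of the genes holding it in their 3′ UTR (horizontal) and by the number of those genes (vertical, log axis), for negative control (left) and miR-26a mimic (right) over the same untransfected library. The blue point is the sequence with the lowest median in the left panel, at -0.11, which lies at 0.03 within the cloud in the right panel.

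The median ratio was lower where a 3′ UTR held more copies. The median was -0.11 in the 769 genes with 1 copy, -0.19 in the 60 genes with 2 copies and -0.28 in the 9 genes with 3 or more. The share at least 1.5-fold lower did not follow the same order. It was 9.36% with 1 copy, 5% with 2 copies (3 of 60) and 22.2% with 3 or more (2 of 9). Of those 9, Hspa12a, a distant relative of heat shock protein 70, fell at -0.88 (-1.26 to -0.52) and Uevld fell at -0.82 (-1.05 to -0.60). Both were named after their values were seen. The 1284 genes with the sequence in the coding region only had a median of -0.07, and the 10222 genes with it in neither had 0.02. The base that follows the sequence split the holders further, with medians of -0.16 for A, -0.11 for G, -0.11 for T and -0.09 for C. The base before it gave -0.15 for A, -0.14 for T, -0.09 for C and -0.08 for G. The genes with different neighbouring bases overlap where a 3′ UTR holds several copies.

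Of the 21 sequences that differ from GCAGTAC at 1 base, counted only in genes without GCAGTAC itself, the lowest was G4A, with positions counted from 1 at the 5′ end of the 7 bases. Its 532 genes had a median of -0.04, and the next, A3G, stood at -0.01. The genes were also described in 5 groups of about equal size by 3′ UTR length. From the shortest to the longest group the medians with the sequence were -0.16, -0.22, -0.11, -0.14 and -0.09, over 28, 81, 136, 199 and 394 genes. Without it they were -0.02, -0.00, 0.02, 0.02 and 0.02.

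**Figure D3:**
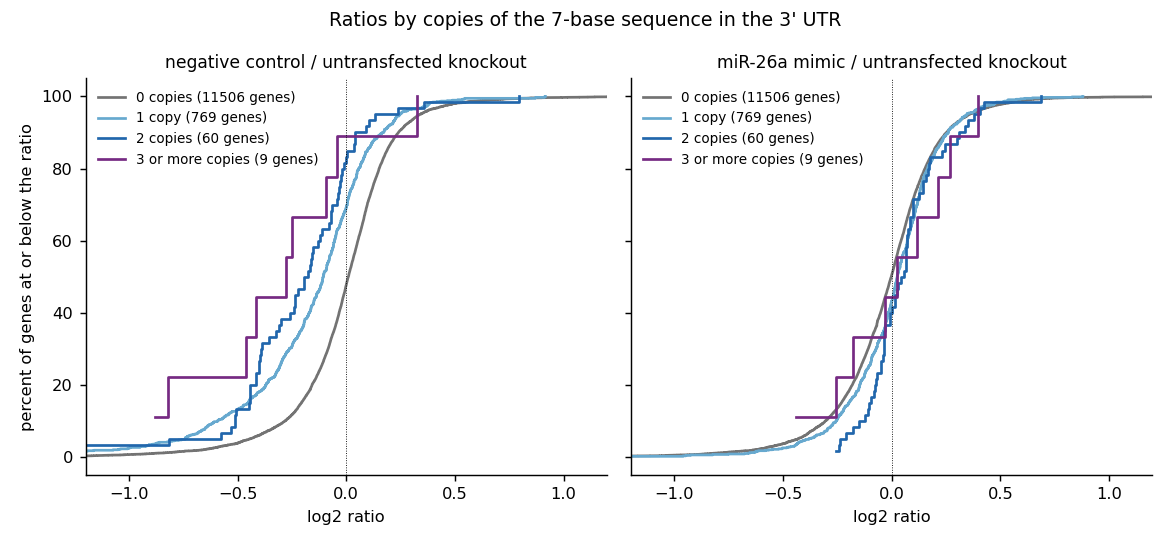
Cumulative distribution of log2 ratios for genes with 0, 1, 2 and 3 or more copies of GCAGTAC in the 3′ UTR, for negative control (left) and mimic (right) over untransfected knockout cells. The vertical axis is the percent of genes at or below a ratio. In the left panel the median moves from 0.01 without a copy to -0.28 with 3 or more, and in the right panel the medians of the 4 groups lie between -0.00 and 0.05.

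The share of called genes that hold the sequence follows from the same ratios that picked it, so it is given as a description with no test. Of the 2-fold lower genes with a 3′ UTR it was in 21 of 86 (24.4%), and of the 2-fold higher ones in 0 of 31. At 1.5-fold it was in 77 of 328 lower genes (23.5%) and in 4 of 112 higher genes (3.57%), against 6.79% of all. Among genes with at least 5 CPM, it was in 12 of 32 (37.5%) of the 2-fold lower and 61 of 210 (29.0%) of the 1.5-fold lower genes, against 7.08% of all. Most lower genes, 251 of 328, therefore did not hold it in the 3′ UTR. Of these, 48 held it in the coding region only (3.74% of such genes) and 203 in neither (1.99%). The 77 lower genes with the sequence had a median level of 19.2 TPM untransfected, 11.5 TPM with the negative control, against 19.2 TPM with the mimic. The 251 lower genes without it in the 3′ UTR had medians of 5.39, 2.87 and 3.93 TPM in the same order. Their median ratios of mimic to untransfected cells were -0.03 with the sequence and -0.24 without. Both groups were selected on the untransfected library, which these ratios share, and the difference between them was not tested. Of the 4 higher genes with the sequence, Srxn1 is described below.

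Of the 838 genes with the sequence in the 3′ UTR, 77 (9.19%) were at least 1.5-fold lower, against 2.18% of genes without it. Several regulators were among the 77. Other holders in the same lists did not pass the limit. Of 5 holders in the TGF-beta list, only Tgfb3 did. Hif1a, the oxygen-regulated transcription factor, fell from 148 to 86.6 TPM at -0.80 (-0.86 to -0.74), with 149 TPM in the mimic and 239 TPM in the wild-type library. Tgfb3, a TGF-beta ligand, fell from 69.9 to 40.7 TPM at -0.81 (-0.91 to -0.71), with 73.1 TPM in the mimic library. Hey1, a Notch target, fell from 13.9 to 8.20 TPM at -0.79 (-1.08 to -0.51), and Runx2, the osteoblast master regulator, from 8.93 to 5.79 TPM at -0.65 (-0.85 to -0.45). Pdpn, podoplanin of the synovial lining, fell from 133 to 61.1 TPM at -1.16 (-1.27 to -1.05). Cnn1 (calponin), Cavin2 (a coat protein of caveolae) and Lims2 (PINCH2 of focal adhesions) fell at -0.69, -0.73 and -0.71. Vim, Arpc1b, Selenof and Ywhah also held 1 copy each, and Eln and Exoc4 held 2.

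**Figure D4:**
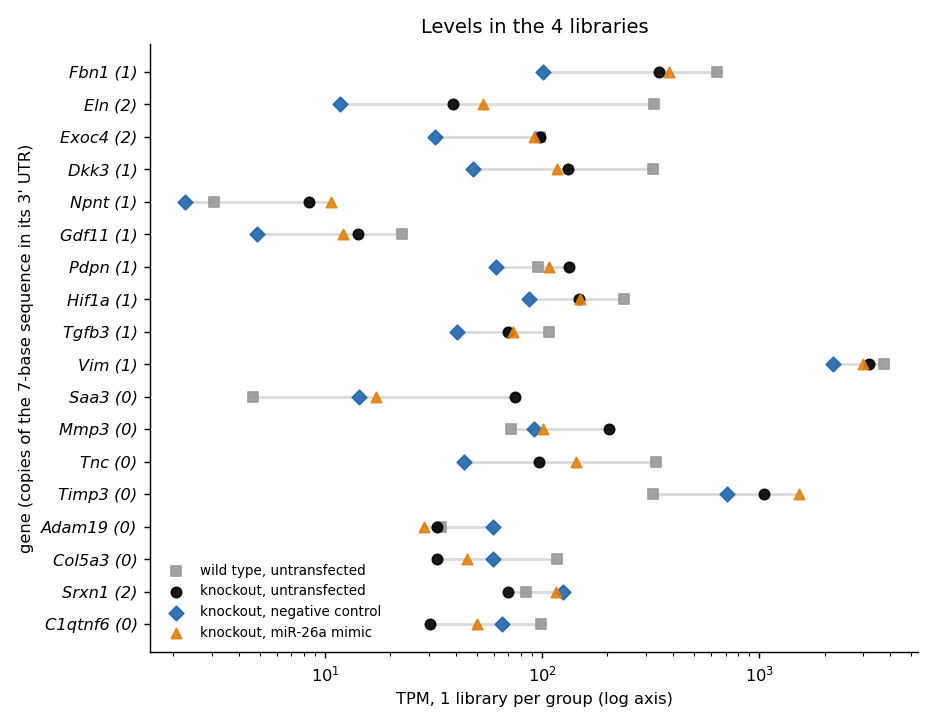
TPM (horizontal, log axis) in the 4 libraries for 18 genes named in the text, with the number of copies of GCAGTAC in the 3′ UTR in parentheses. For Fbn1, Eln, Exoc4, Dkk3, Npnt, Gdf11, Hif1a, Tgfb3 and Vim the negative-control library (blue diamonds) is the lowest of the 4 and the mimic library (orange triangles) lies near the untransfected one (black circles). For Saa3 and Mmp3, with 0 copies, both transfected libraries lie below the untransfected one. For Tnc and Timp3, also with 0 copies, the mimic library lies above the untransfected one and the negative-control library below it.

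Matrix genes were lower in part. Of 23 measured elastic fibre and microfibril genes, 19 were below 0, 3 fell and 1 rose at 1.5-fold, with a list median of -0.17. Over all measured genes 49.4% were below 0, 2.71% fell, 0.981% rose and the median was 0.00. Besides Fbn1 and Eln, Mfap5, a microfibril glycoprotein, fell from 202 to 129 TPM at -0.69 (-0.78 to -0.60). Fbn2, the fibrillin of development, rose from 2.43 to 4.07 TPM at 0.72 (0.49 to 0.96). Fbn1 and Eln were the 2 members of the list that held GCAGTAC, against 6.79% of all genes with a 3′ UTR. Lists were chosen with earlier results of these data known, and they are described by counts only.

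Of 21 proteoglycan and hyaluronan genes, 17 were below 0, 6 fell and 0 rose, against 49.4%, 2.71% and 0.981% of all genes. Their median was -0.44, which was -0.24 on deposited TPM and -0.21 for members with at least 5 CPM. None of the 21 held GCAGTAC, a count near the 6.79% of all genes with a 3′ UTR for a list of this size. Prelp, a leucine-rich proteoglycan that anchors basement membranes, fell from 512 to 300.2 TPM at -0.81 (-0.84 to -0.77), with 379 TPM in the mimic library. Lum, lumican, fell from 14.3 to 6.74 TPM at -1.12 (-1.44 to -0.81), with 8.65 TPM in the mimic library. Omd (osteomodulin, -0.98) and Acan (aggrecan, -2.09, with an interval of -4.06 to -0.87) were rare, at 43 and 22 counts in the untransfected library.

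Of 29 matricellular and adhesive glycoproteins, 6 fell and 0 rose, against 2.71% and 0.981% of all genes, with a median of -0.09. Tnc, tenascin-C of injured and stretched tissue, fell from 97.0 to 43.9 TPM at -1.17 (-1.24 to -1.11), with 143 TPM in the mimic and 335 TPM in the wild-type library. Its 3′ UTR held no copy of GCAGTAC. Sparcl1 and Tnn fell at -0.96 and -0.89. Of 16 collagens other than the fibrillar ones, 2 fell, namely Col8a1, a short-chain collagen, from 132 to 66.7 TPM at -1.02 (-1.08 to -0.96), and the rarer Col8a2 at -0.92 (-1.72 to -0.20). Col12a1, at -0.50, and Col4a5, at 0.50, did not reach the 1.5-fold limit. Of 10 fibrillar collagens 1 rose and 0 fell. Col5a3 rose from 32.7 to 59.2 TPM at 0.83 (0.75 to 0.91), with 44.9 TPM in the mimic and 117 TPM in the wild-type library. Col1a1 stood at -0.06 and Col3a1 at -0.04, both between 1263 and 2780 TPM in the 2 libraries, and Col1a2 at -0.00, which was 0.02 with total count scaling and 0.03 on deposited TPM.

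Of 34 matrix proteases and inhibitors 3 rose and 3 fell, against 0.981% and 2.71% of all genes, with a median of 0.03. Mmp3, stromelysin-1, fell from 203 to 91.8 TPM at -1.19 (-1.28 to -1.10) and was 101 TPM with the mimic, so the untransfected library was the high one. Reck, a membrane-anchored protease inhibitor, fell from 16.4 to 9.59 TPM at -0.80 (-0.98 to -0.63) and was 18.9 TPM with the mimic. Adam19, a sheddase of membrane proteins, rose from 32.7 to 59.5 TPM at 0.83 (0.75 to 0.91), against 28.5 TPM with the mimic and 34.4 TPM in wild type, so that the negative-control library was the only high one of the 4. Adamts14, which processes procollagen, rose at 0.65 (0.31 to 1.00).

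Among the signalling lists described here, the Wnt genes had the lowest median, -0.32. Of 32 measured, 25 were below 0, 6 fell and 0 rose, against 49.4%, 2.71% and 0.981% of all genes. In the other signalling and adhesion lists at most 2 members passed in either direction. After Dkk3 the largest ratios were in rare transcripts, with Wnt11 at -0.94 (-1.70 to -0.25), the antagonist Wif1 at -0.90 (-1.74 to -0.15), and Lef1 at -0.89 with an interval that included 0 (-2.01 to 0.07). Of 26 TGF-beta ligands, receptors and response genes 20 were below 0 and 1, Tgfb3, fell, with a median of -0.12. Ldlrad4, an inhibitor of Smad activation, stood at -0.57, and the signal transducer Smad2, with 2 copies of GCAGTAC, at -0.44. The 23 BMP genes had a median of -0.14, and Bmp6 rose at 0.62 (0.23 to 1.04). Of 16 Notch genes only Hey1 fell. Of 31 stromal growth factor genes 2 fell and 0 rose, with a median of -0.17. These were Igfbp2, from 165 to 105 TPM at -0.67, and Igfbp5, from 23.0 to 15.3 TPM at -0.61, both binding proteins of insulin-like growth factors.

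Contractile genes had a median of -0.15, and 2 of 24 fell, Cnn1 and the rare Des (desmin, -1.24). Actg2, a smooth muscle actin, stood at -0.54 and Myh11 at -0.56. Of 32 integrin and focal adhesion genes 2 fell, Itgb8 and Lims2, and Tln2 and Fermt2, activators of integrins, stood at -0.51 and -0.48. Of 30 YAP and TAZ targets 1 rose, the rare Tead4 at 0.95 (0.26 to 1.74), and 1 fell, Ptpn14 at -0.64 (-0.73 to -0.55). Of 29 endocytosis and membrane trafficking genes 2 fell, Exoc4 and Cavin2. Over all measured genes 2.71% fell and 0.981% rose at 1.5-fold. In lists of this size 1 or 2 members are too few to set apart from those shares.

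**Figure D5:**
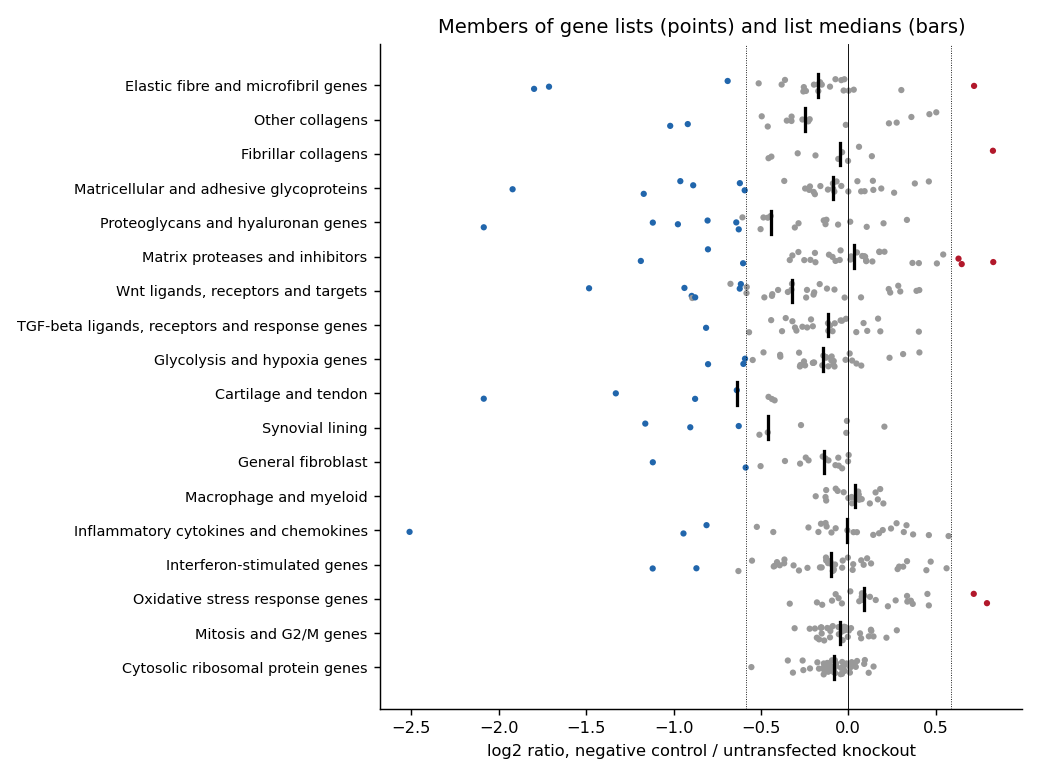
Log2 ratios of negative control over untransfected knockout cells for the measured members of 18 gene lists (points, with vertical jitter) and the list medians (black bars). Blue points are at least 1.5-fold lower and red points at least 1.5-fold higher with an interval that excludes 0, and dotted lines mark 1.5-fold. Medians run from -0.64 for cartilage and tendon markers to 0.09 for oxidative stress genes.

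Genes that respond to foreign RNA had few members past the limit. Of 42 measured interferon-stimulated genes 0 rose and 2 fell at 1.5-fold, against 0.981% and 2.71% of all genes, and 29 were below 0, with a median of -0.10. Isg15 and Ifit1 were named outside the rule, after their values were seen, because they are common reporters of this response. Isg15, a ubiquitin-like protein, stood at 31.97 TPM untransfected, 24.9 TPM with the negative control, against 37.5 TPM with the mimic, a ratio of -0.42 (-0.77 to -0.08). Ifit1, an RNA-binding effector, stood at -0.55 (-0.96 to -0.16), from 5.32 to 3.71 TPM, with 7.95 TPM in the mimic library. Ccl5, a chemokine, fell from 23.9 to 11.5 TPM at -1.12 (-1.78 to -0.53), and Usp18, which removes Isg15 from proteins, fell at -0.87 (-1.76 to -0.08), with 35 and 21 counts. Zbp1, a nucleic acid sensor, stood at -0.63 with an interval that included 0 (-1.45 to 0.13). Gbp2, a guanylate-binding protein, stood at 0.56 (0.32 to 0.81), below the limit. Of the 22 sensors and adaptors 0 passed 1.5-fold in either direction, a count near the 0.981% and 2.71% of all genes for a list of this size. Their median was 0.03, and Dhx58 (LGP2), at -0.30, Tlr9, at 0.29, and Tlr8, at -0.23, were among the farthest from 0. Each of these statements is for 24 h after transfection, the 1 time sampled.

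The RNA interference machinery itself also had 0 of 16 members past 1.5-fold, likewise near those shares, with a median of 0.03. Dicer1, which cuts microRNA precursors, was the farthest, at 12.98 TPM untransfected, 18.7 TPM with the negative control, 15.7 TPM with the mimic and 14.8 TPM in wild type, a ratio of 0.47 (0.37 to 0.58). The Argonaute gene Ago4 stood at -0.31, and Tnrc6a and Tnrc6b, scaffolds of the silencing complex, at -0.31 and 0.30.

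Of 25 measured cytokines and chemokines, 3 fell and 0 rose, against 2.71% and 0.981% of all genes, and the median was -0.01. Besides Saa3, the chemokines Ccl8 and Cxcl5 fell, from 83.2 to 46.0 TPM at -0.94 (-1.28 to -0.63) and from 13.9 to 8.12 TPM at -0.81 (-1.16 to -0.48), with 68.8 and 6.13 TPM in the mimic library. Csf1, the macrophage growth factor, stood at 381 TPM untransfected, 561 TPM with the negative control, 532 TPM with the mimic and 339 TPM in wild type. Its ratio, 0.57 (0.54 to 0.61), was just under the 1.5-fold limit. None of the 25 held GCAGTAC, a count near the 6.79% of all genes with a 3′ UTR for a list of this size.

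Stress programmes differed by single genes. Of 26 oxidative stress genes 2 rose and 0 fell, against 0.981% and 2.71% of all genes, with a median of 0.09. Srxn1, which repairs oxidized peroxiredoxins, rose from 70.0 to 124 TPM at 0.79 (0.71 to 0.88) and was 116 TPM with the mimic. The 3′ UTR of Srxn1 holds GCAGTAC 2 times. Slc7a11, the cystine importer, rose from 4.02 to 6.75 TPM at 0.72 (0.53 to 0.91). Gsta4 and Nqo1 stood at 0.46 and 0.45. In the 32 genes of the amino acid and endoplasmic reticulum stress list, which shares Slc7a11, Chac1, a glutathione-degrading enzyme with 1 copy of GCAGTAC, fell at -0.67 (-0.88 to -0.46), while its list mates Psat1, at 0.54, and Trib3, at 0.51, were above 0, and the median was 0.10. None of 17 heat shock genes and none of 25 p53 targets passed 1.5-fold, counts near the shares of all genes for lists of this size. Of 28 immediate early genes Fosl1 rose from 11.4 to 19.5 TPM at 0.73 (0.45 to 1.02), and Myc stood at 0.44.

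Metabolic lists had few members past the limit. None of 26 cholesterol genes passed 1.5-fold with the negative control, with a median of -0.09. Their median in mimic over untransfected cells was -0.32. In 33 glycolysis and hypoxia genes the median was -0.14, 26 were below 0, and 3 fell, namely Hif1a, the lactate exporter Slc16a3 at -0.60 (-0.73 to -0.47) and Bnip3 at -0.59 (-0.74 to -0.44). Of 24 fatty acid genes only Mgll, a monoglyceride lipase, passed, from 7 to 4.03 TPM at -0.83 (-1.15 to -0.53). The cholesterol exporters Abcg1 and Abca1 stood at 0.57 and 0.53. None of 34 G2/M genes, 35 replication genes, 36 respiratory chain genes or 49 ribosomal protein genes passed 1.5-fold, against 0.981% higher and 2.71% lower of all genes. Rpsa, at -0.55, was the farthest ribosomal gene, with 1199 TPM untransfected, 839.6 TPM with the negative control, against 1334 TPM with the mimic. The ribosomal median, -0.08, was -0.01 on deposited TPM.

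Markers of several mesenchymal cell types were lower as well, and some of them are also members of the matrix lists. All 7 measured cartilage and tendon markers were below 0 and 4 fell, against 49.4% and 2.71% of all genes, among them Comp, a cartilage matrix protein, from 80.6 to 45.02 TPM at -0.88 (-0.99 to -0.76), and Thbs4 at -0.64 (-0.81 to -0.47). Their summed level was 122 TPM untransfected, 71.4 TPM with the negative control, 115 TPM with the mimic and 538 TPM in wild type. Of 9 synovial lining markers 8 were below 0 and 3 fell, with sums of 314, 199, 300.2 and 322 TPM in the same order. These were Pdpn, Tspan18 at -0.90 (-1.12 to -0.69) and Prg4 (lubricin), from 106 to 70.5 TPM at -0.63 (-0.70 to -0.55). Of 16 general fibroblast markers 15 were below 0 and 2 fell, Lum and Vim, with a median of -0.14. The osteoblast genes Alpl and Runx2 fell at -1.27 (-1.95 to -0.67) and -0.65, and Sp7 had 19 counts untransfected and 1 count with the negative control, with an interval of -9.79 to -1.76. The 8 measured Schwann cell markers had a median near 0, at -0.03, which was 0.00 on deposited TPM. Of these, 3 were above 0, 5 were below 0 and 2 fell, Cdh19 and S100b, both at -0.65.

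Among the 8 pericyte and smooth muscle markers 2 rare ones fell, Des and Abcc9, and Acta2 stood at -0.31. Skeletal muscle markers had 3 of 12 measured, with Mylpf at 6.93 and 2.79 TPM, and the defining gene Myod1 had 1 count in each library. None of the 21 macrophage markers passed 1.5-fold, and their median was 0.04, from Lyz2 at -0.19 to Fcgr1 at 0.20. Over all genes 0.981% rose and 2.71% fell, so that count is near those shares for a list of this size. Complement genes C1qa, C1qb and C1qc stood at 0.06, -0.07 and 0.16. The part of these marker differences in the lower matrix genes was not tested.

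The genes that rose were fewer and lower in level. C1qtnf6, a secreted C1q and TNF related protein, rose from 30.5 to 65.4 TPM at 1.01 (0.88 to 1.15), with 50.1 TPM in the mimic and 98.8 TPM in the wild-type library. The untransfected library was the lowest of the 4. Lmbr1l rose from 3.99 to 8.34 TPM at 1.02 (0.62 to 1.44). Amot, angiomotin of cell junctions, rose from 5.92 to 11.03 TPM at 0.91 (0.74 to 1.09), against 6.84 TPM with the mimic. Adh7, a retinol-oxidizing dehydrogenase, rose from 5.80 to 11.1 TPM at 0.88 (0.54 to 1.24), and Igf2bp2, an RNA-binding protein, from 13.1 to 23.1 TPM at 0.79 (0.62 to 0.95), with 24.1 TPM in the mimic library. Gpr84, a receptor of activated macrophages, rose from 4.35 to 7.68 TPM at 0.77 (0.30 to 1.28). Lyzl4 rose at 1.02 (0.13 to 2.09) and Cd300ld4 at 1.01 (0.15 to 2.04), both with wide intervals. Ndufaf6 rose at 0.93 (0.37 to 1.55) and Fam131b at 0.84 (0.54 to 1.15).

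Zfp967 (2.02) and Plac9a (1.94) have near-identical copies, and their counts are uncertain. Zfp967 lies in the same gene family as the lower Zfp966. Of the 38 genes 2 had 0 counts in the untransfected library. How reads were assigned to these 2 genes was not checked, so the smallest folds given next allow for depth only. Rsc1a1 had 49 counts with the negative control, 0 with the mimic and 74 in wild type, at least 14.6-fold higher when 3 counts are taken as the floor of the untransfected library, and Gm9780 had 32, 0 and 6, at least 9.52-fold higher. Both were named after their values were seen.

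Host and reference genes lay closer to 0. The host genes of miR-26a, Ctdspl, Ctdsp2 and Ctdsp1, stood at 0.07 (-0.12 to 0.25), 0.02 (-0.04 to 0.08) and -0.08 (-0.18 to 0.02). MiR-26a itself was not analysed here, so the genotype was not checked from these libraries. None of the 14 common reference genes passed 1.5-fold, a count near the 0.981% higher and 2.71% lower of all genes. B2m stood at -0.24, Gapdh at -0.20 and Actb at 0.15, and the intervals of these 3 genes excluded 0. Gene properties moved the ratio little. The median was -0.03 in the shortest of 5 groups by transcript length and 0.01 in each of the others, and it was between -0.01 and 0.01 in 5 groups by GC content.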

How the data were processed

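RNA sequencing of 4 libraries, 1 per group, was analysed. FastQC, HISAT, Bowtie2 and the builds GRCm38.p6 and mm10 are listed in the submitters' processing notes. Quantifier, annotation and strand setting were not given in the sources used here. Per the file headers, the authors deposited estimated counts (about 5% with decimals), TPM, FPKM and a normalized signal. They also deposited log2 ratios and p-values from PoissonDis. FPKM and signal were not used, and the authors' log2 ratios and false discovery rates only in the closing section. Estimated counts were rounded and scaled by TMM factors (edgeR 4.0.16 in R 4.3.3), and log2 ratios had a prior count of 1. Intervals are exact conditional binomial 95% intervals. DESeq2 1.42.0 size factors, total counts, TPM + 1, other filters and a prior of 5 were alternatives. Ratio and interval procedures were tested on simulated data. Named genes were the 15 largest ratios in each direction with at least 5 TPM (1.5-fold calls filling up), the 10 largest TPM differences, the 4 farthest members of each described list, host, reference and abundant marker genes. The libraries and 50 lists were chosen with earlier results of these data known. The 7-base scan was chosen after the data were seen. A few genes that the naming rule returned are not reported here.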

Additional observations from a re-analysis of the deposited data

How the results depend on the processing

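Counts past a limit depended on how rare genes were treated. With deposited TPM, 7 genes were 2-fold higher and 24 lower, and 76 and 180 at 1.5-fold. With at least 5 CPM the counts were 5 and 33 at 2-fold, and 50 and 212 at 1.5-fold. With no filter 75 were 2-fold higher, and with a prior count of 5, 19 were. The other 18 alternatives for these 4 counts stayed within 1.5 times, and lower genes outnumbered higher ones in each. The median over all genes was 0.03 with total counts and 0.04 with TPM. Of 237 alternative list medians 4 moved by more than the median counting error of their members, all with TPM or at least 5 CPM, and 18 changed sign, each in a list with a median within 0.04 of 0. Of 317 alternatives for single genes 34 left the counting interval and 2 changed sign, both for Col1a2. GCAGTAC kept the lowest median in all 7 alternatives added after the data were seen, and the holders' median minus that of the other genes was between -0.12 and -0.11. All 7 reuse the libraries that picked the sequence. Total counts and DESeq2 size factors move all genes nearly alike, so they could hardly change this rank, which is no separate evidence. No paired analysis was possible because each group had 1 library, and for the same reason no library could be left out. Ratios of genes with few counts are limited by depth, since 3 counts correspond to between 0.15 and 0.17 CPM per library.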

Other observations

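The authors' deposited table gives log2 ratios for the same pair of libraries that equal the ratio of unscaled counts for 14604 of 14604 genes with counts in both libraries, within 1e-06. Their median over measured genes was 0.17 in the authors' deposited table, and the log2 ratio of the total counts was 0.14, so a gene at the middle of the distribution is listed there above 0. With a false discovery rate of at most 0.001 and at least 2-fold, the authors' deposited table holds 16 higher and 29 lower genes. For Fbn1 the authors' deposited table gives -1.63, for Exoc4 -1.52 and for C1qtnf6 1.18. Replacing zeros by 0.01, as that table does, gives genes with 0 counts in 1 library very large ratios.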
